A study of Mus musculus with 32 samples.

Results

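Described here are 9 genes of heme synthesis and erythroid maturation, Alas2, Urod, Cpox, Fech, Tfrc, Epor, Car1, Car2 and Mfsd2b, in mouse bone marrow cells that had lost the histone acetyltransferase gene Kat7, also called Hbo1. They were taken by symbol from a list, chosen with earlier results of these data known. They are 9 of the 27179 genes in the deposited count table. RNA sequencing was done on 32 libraries from 16 adult C57BL/6 mice, 1 library of LSK cells and 1 of progenitor cells per mouse. LSK cells are the marrow fraction without lineage markers and with Sca-1 and Kit, in which the blood stem cells lie. The labels do not describe the progenitor gate. In the CreER groups, floxed Hbo1 was deleted by RosaCreERT2, a Cre that tamoxifen activates and that the broadly active Rosa26 locus drives. In the Mx1Cre groups it was deleted by a Cre under the interferon-responsive Mx1 promoter, switched on with PolyIC, a double-stranded RNA mimic that itself induces interferon. Knockouts were Hbo1fl/fl with both alleles deleted, and controls, by their titles, Hbo1fl/+ with 1 allele deleted, so that controls also carried Cre and received the agent. The treatment protocol instead calls the controls wild type. Each of the 8 groups held 4 libraries from 4 mice. A Cre line, its agent and its mice cannot be told apart.

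Heme is built from glycine and succinyl-CoA in a chain of enzymes that begins and ends in the mitochondrion. Red cell precursors use a dedicated first enzyme, ALAS2, import iron through the transferrin receptor, and survive on erythropoietin signals. Carbonic anhydrases and membrane transporters accumulate as the cells mature, while blood stem cells hold little of this program.

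The libraries held 7275277 to 18409271 counts, with a median of 12207444. Values below are CPM, a gene's share of a library's counts on a common total, scaled between libraries with TMM factors. Kat7 was at 39.3 CPM or more in all 16 control libraries and at 1.69 or less in all 16 knockout libraries. Of the 10 LSK markers, 8 were higher in LSK than in progenitor CreER controls and 10 in Mx1Cre controls. 4 libraries stood apart. In the LSK CreER knockout group, libraries 2 and 3 had sex-linked genes that did not match their label, with Kat7 at 0.855 and 0.820 CPM. Progenitor Mx1Cre control 1 had the lowest Kat7 of any control and the strongest loss of long genes, with a slope of -0.434 of log2 CPM on log2 exon length. Progenitor Mx1Cre knockout 4 came next with a slope of -0.34, and the other 30 libraries lay between -0.169 and 0.136. The main results that these libraries touch are given with and without them. In sorted bulk samples, fewer cells of a type and less RNA per cell cannot be told apart.

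The sequence just upstream is shown for 3 of the genes with a called difference below. Car1 and Car2, which were also called, had no window among those examined, and the windows of Tfrc are not shown. In knockout LSK cells Mfsd2b fell with both Cre lines and Epor mainly with Mx1Cre. In knockout progenitors Alas2 rose, averaged over the Cre lines. Each window is the 250 bases before the RefSeq start of the gene on GRCm38.p6, written 5′ to 3′ on the strand of the gene. Capitals mark matches, on either strand, to AGATAA or TGATAA, words bound by GATA factors, or to CCNCNCCC, a word bound by KLF1. Matches to CCNCNCCC may overlap one another. The windows are Epor at chr9:21963577-21963826 (minus strand), Mfsd2b at chr12:4874360-4874609 (minus strand) and Alas2 at chrX:150547167-150547416 (plus strand).
Epor: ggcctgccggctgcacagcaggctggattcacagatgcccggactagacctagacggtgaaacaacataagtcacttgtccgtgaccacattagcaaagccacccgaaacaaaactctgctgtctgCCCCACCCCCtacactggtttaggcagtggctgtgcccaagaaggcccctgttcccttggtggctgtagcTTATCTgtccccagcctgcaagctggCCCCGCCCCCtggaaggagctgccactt
Mfsd2b: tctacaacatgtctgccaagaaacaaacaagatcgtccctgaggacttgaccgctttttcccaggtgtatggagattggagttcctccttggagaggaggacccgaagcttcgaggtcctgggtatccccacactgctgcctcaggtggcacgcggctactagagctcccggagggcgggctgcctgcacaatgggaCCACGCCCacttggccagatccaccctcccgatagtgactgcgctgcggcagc
Alas2: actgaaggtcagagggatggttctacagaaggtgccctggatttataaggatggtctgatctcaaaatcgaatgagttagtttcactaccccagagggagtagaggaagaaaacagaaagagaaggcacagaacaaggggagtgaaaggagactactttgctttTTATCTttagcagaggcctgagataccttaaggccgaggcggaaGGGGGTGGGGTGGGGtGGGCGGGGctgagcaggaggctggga

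The Epor window held an AGATAA match 54 to 49 bases before the start and 4 overlapping matches to CCNCNCCC in 2 blocks. The Alas2 window held an AGATAA match 86 to 81 bases before the start and 4 CCNCNCCC matches between 42 and 19 bases before it. The Mfsd2b window held a single CCNCNCCC match, 53 to 46 bases before the start, and neither GATA word. In all, 6 of the 9 genes had a window among those examined, with 7 windows because Tfrc had 2. Windows on chromosome 18, where Fech lies, were not examined. AGATAA occurred in 2 of these 7 and in 9.99% of the 32851 windows examined. TGATAA occurred in 1 of the 7, that of Cpox, against 7.94%, and CCNCNCCC in 5 of the 7 against 45.9%. A match is a description of the letters and was not tested as a binding site. Car1, Car2 and Fech were not matched.

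The 9 genes differed widely in level. Per kilobase of exon (RPKM), Car2 and Car1, cytosolic carbonic anhydrases that interconvert carbon dioxide and bicarbonate, led in both control groups of both populations. In LSK CreER controls Car2 had 229 ± 30.1 RPKM (SD, n = 4) and Car1 119.5 ± 26.8. Urod followed at 50.5 ± 1.46, Mfsd2b at 40.6 ± 6.57, Tfrc at 26.2 ± 3.13 and Cpox at 22.0 ± 1.90. Epor at 14.8 ± 1.56 and Fech at 14.6 ± 1.28 did not differ beyond their spread, nor did Tfrc and Cpox by more than their combined SDs. Alas2 came last at 0.281 ± 0.208 RPKM, so its level in LSK cells rested on very few reads.

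In progenitor CreER controls the order on the RPKM scale was Car1 (523 ± 105), Car2 (391 ± 81.7), Cpox (69.5 ± 9.50), Urod (67.8 ± 3.82), Mfsd2b (64.5 ± 17.6), Tfrc (53.2 ± 8.02), Epor (43.8 ± 9.73), Fech (26.7 ± 2.25) and Alas2 (0.303 ± 0.185). Neighbours from Cpox to Epor lay within each other's spread. The order was different in LSK Mx1Cre knockouts, where Tfrc led at 50.3 ± 4.97 RPKM. Car2 (44.5 ± 12.7) and Urod (43.0 ± 5.07) were level with it within their spread, and Car1 stood sixth at 7.72 ± 4.01.

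**Figure D1:**
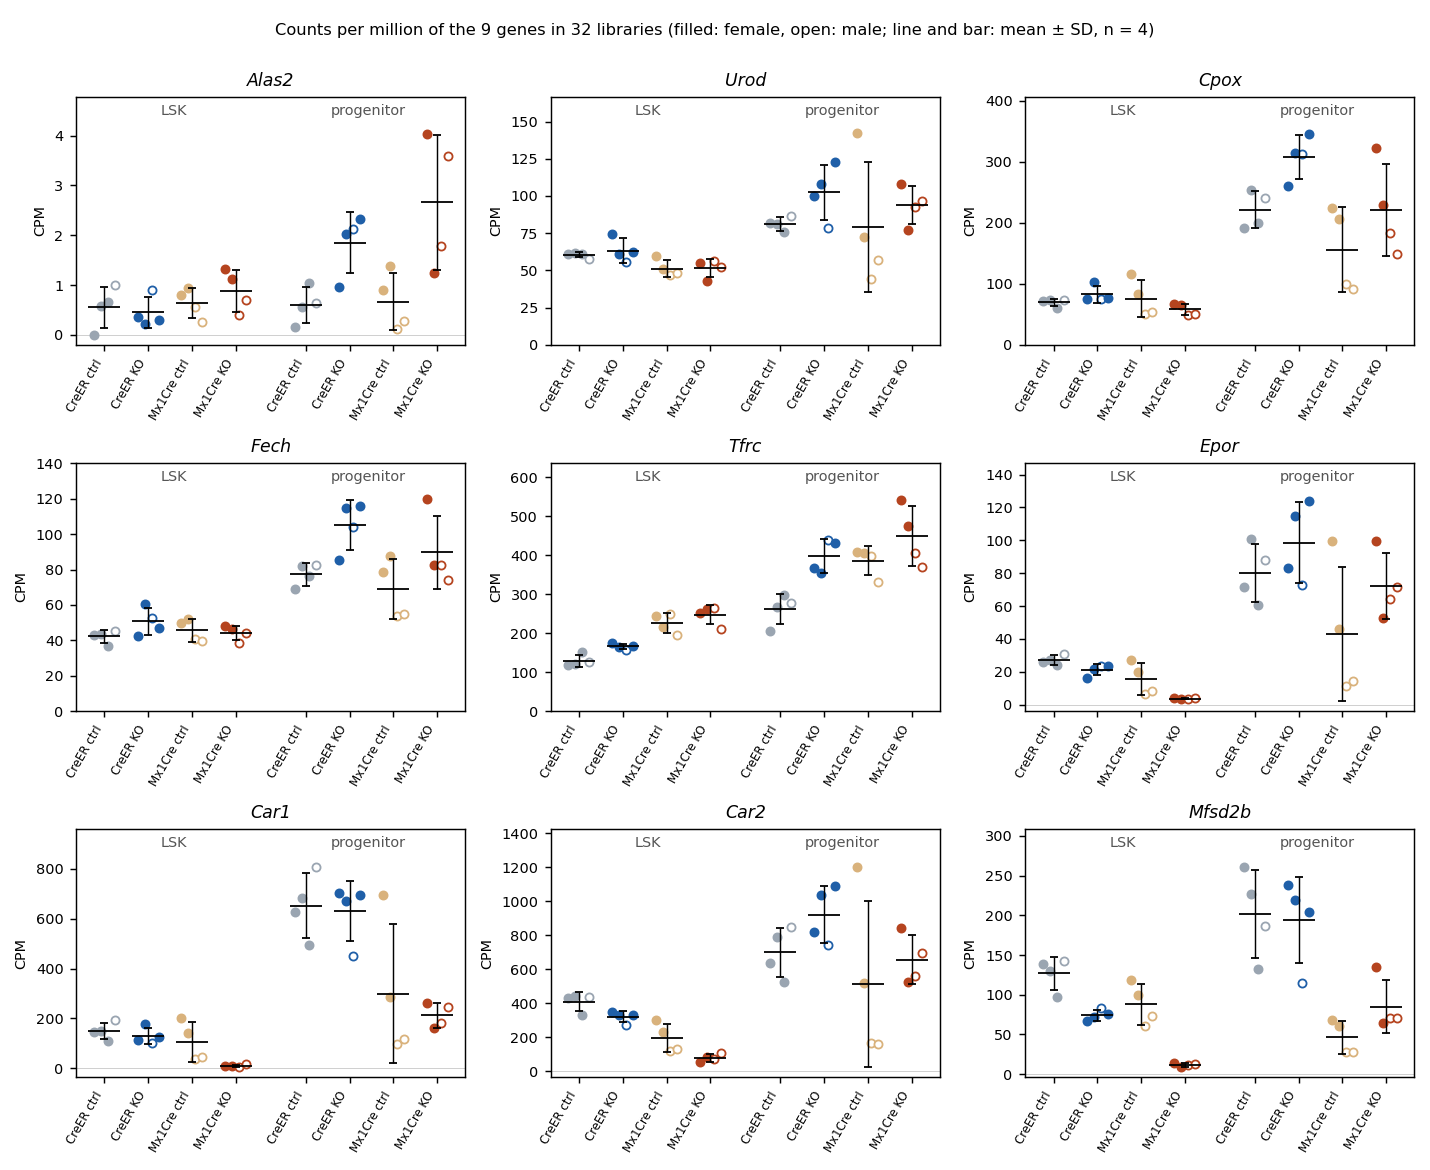
CPM of the 9 genes in each of the 32 libraries, 1 panel per gene, with LSK groups on the left and progenitor groups on the right. Points are libraries (filled female, open male, as labelled) and lines with bars are the mean ± SD of 4. Epor, Car1, Car2 and Mfsd2b are lowest in the LSK Mx1Cre knockouts, and the progenitor Mx1Cre controls are widely spread.

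The first comparison was of LSK with progenitor cells in control mice, where heme enzymes and erythroid genes were mostly lower in LSK cells. In CreER controls, 5 of the 9 genes were called lower in LSK cells at an adjusted p under 0.05 and none higher, against 17.9% of all genes called. Cpox, which makes protoporphyrinogen from coproporphyrinogen, was at 71.8, 74.0, 61.0 and 73.3 CPM in LSK libraries 1 to 4 and at 192, 254, 199 and 240.2 in progenitors. The groups did not overlap, and the log2 difference was -1.66 ± 0.26 (SE; adjusted p = 4.14e-05, edgeR quasi-likelihood test with Benjamini-Hochberg adjustment). Car1 differed by -2.13 ± 0.48, Epor by -1.56 ± 0.43, Tfrc by -1.02 ± 0.12 and Fech by -0.87 ± 0.16 on the log2 scale. Urod (-0.42), Car2 (-0.77) and Mfsd2b (-0.67) were not called. Urod (-0.43, adjusted p = 0.0179, edgeR) was also called without progenitor Mx1Cre control 1, which is in the shared fit, and 22.6% of all genes were then called. With the mouse as a block, since each mouse gave both populations, 8 of 9 were called lower against 22.2% of all genes, Alas2 being the exception.

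In Mx1Cre controls, 7 genes were called lower in LSK cells and Mfsd2b higher, against 28.2% of all genes called in either direction. These calls used the spread of all 32 libraries. With only the 8 compared libraries, Tfrc alone was called. Mfsd2b, which exports sphingosine-1-phosphate from red cells and platelets, was at 118, 99.6, 60.1 and 73.3 CPM in LSK libraries and at 68.4, 60.1, 28.5 and 28.3 in progenitors. Within each mouse the LSK library was the higher, although the groups overlapped, and the log2 difference was 0.93 ± 0.28 (adjusted p = 0.0153, edgeR). Without progenitor Mx1Cre control 1, 4 were called against 17.8% of all genes: Cpox (-0.78), Fech (-0.50) and Tfrc (-0.72) lower and Mfsd2b (1.19) higher. The calls of Urod, Epor, Car1 and Car2 were lost without that library. Leaving out LSK Mx1Cre control 4 also ended the calls of Urod, Epor and Car1, leaving out control 3 those of Urod and Car1, and leaving out control 2 that of Urod. The call of Mfsd2b was lost without LSK control 1 or progenitor control 4, with the log2 difference at 0.75 to 1.19 over the 8 such fits.

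In LSK cells deleted with Mx1Cre, 4 of the 9 genes were lower: the erythropoietin receptor Epor, both carbonic anhydrases and Mfsd2b. None of the heme enzymes passed the threshold. These are 4 of 9 lower, against 15.9% of all genes called lower and 31.0% called in either direction. All 4 had groups that did not overlap, which was true of 14.6% of all genes in the lower direction. The median log2 change of the 9 genes was -0.40, against -0.0053 over all 14102 genes tested. The length slope moved with this comparison, at 0.0332 to 0.0794 in the 4 controls and at -0.0877, 0.0583, -0.143 and -0.169 in knockouts 1 to 4. With the length trend removed, the same 4 genes were called, with log2 changes of -2.15 for Epor, -3.6 for Car1, -1.37 for Car2 and -2.89 for Mfsd2b.

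Epor encodes the receptor through which erythropoietin supports red cell precursors. In LSK Mx1Cre controls it was at 26.9, 19.9, 6.43 and 8.43 CPM in libraries 1 to 4, and in knockouts at 4.17, 3.49, 3.11 and 3.70. Every knockout library lay below every control, although the controls themselves spread over a wide range with the 2 males lowest. The log2 change was -2.11 ± 0.34 (adjusted p = 0.000216, edgeR).

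Car1 was at 203, 140.1, 38.4 and 43.5 CPM in these controls and at 8.15, 8.37, 5.21 and 16.8 in knockouts. Its change was the largest of the 9, at -3.48 ± 0.47 on the log2 scale (adjusted p = 3.88e-05, edgeR). Car2 was at 299, 231, 122 and 134 CPM in controls and at 53.7, 86.9, 71.0 and 107 in knockouts. Its highest knockout library lay close under its lowest control, and the log2 change was -1.31 ± 0.24 (adjusted p = 0.000632, edgeR).

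Mfsd2b was at 118, 99.6, 60.1 and 73.3 CPM in controls and at 13.5, 8.69, 11.9 and 12.3 in knockouts. It had the lowest adjusted p of the 9 genes, with a log2 change of -2.94 ± 0.20 (adjusted p = 1.76e-08, edgeR). Its knockout libraries were tightly grouped and all lay far under the controls.

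No heme enzyme among the 9 was called in the same LSK libraries. Urod, which decarboxylates uroporphyrinogen, averaged 51.3 ± 5.73 CPM in controls and 51.6 ± 6.08 in knockouts (SD, n = 4), a log2 difference of -0.0034 with a 95% interval of -0.23 to 0.22. Fech, the ferrochelatase that inserts iron, averaged 45.6 ± 6.31 and 44.1 ± 4.23 CPM, with an interval of -0.31 to 0.20. Cpox averaged 76.0 ± 30.5 and 58.2 ± 9.41 CPM, and its log2 difference of -0.40 had a 95% interval of -0.82 to 0.028 and an adjusted p of 0.142 (edgeR). Cpox was called without LSK Mx1Cre control 3 (-0.57, adjusted p = 0.0357, edgeR). Alas2, the erythroid first enzyme, was at 0.261 to 0.938 CPM in controls and 0.389 to 1.33 in knockouts, which overlapped, and its log2 difference of 0.47 had a wide 95% interval, from -0.81 to 1.74. Tfrc, the transferrin receptor, was not called either, at 226 ± 24.9 and 247 ± 24.4 CPM.

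With CreER, only Mfsd2b was called in LSK cells, 1 of 9 against 3.16% of all genes. It was at 139, 129.8, 97.2 and 142 CPM in controls and at 66.7, 71.6, 82.8 and 75.2 in knockouts. The groups did not overlap, and the log2 change was -0.77 ± 0.18 (adjusted p = 0.0235, edgeR). The call was lost on leaving out any of controls 1, 2 and 4 or knockouts 2 and 4, with a change of -0.88 to -0.72 over such fits. Without knockouts 2 and 3 together no gene of the 9 was called (0.227% of all genes). Tfrc was at 117, 121, 151 and 127 CPM in controls and at 174, 166, 157 and 168 in knockouts. Its groups did not overlap, yet its log2 difference of 0.37 missed the threshold (adjusted p = 0.0554, edgeR). Epor was lower and Cpox higher in every knockout library than in any control, without being called. In all, 4 of 9 genes had groups that did not overlap, against 9.13% of all genes.

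**Figure D2:**
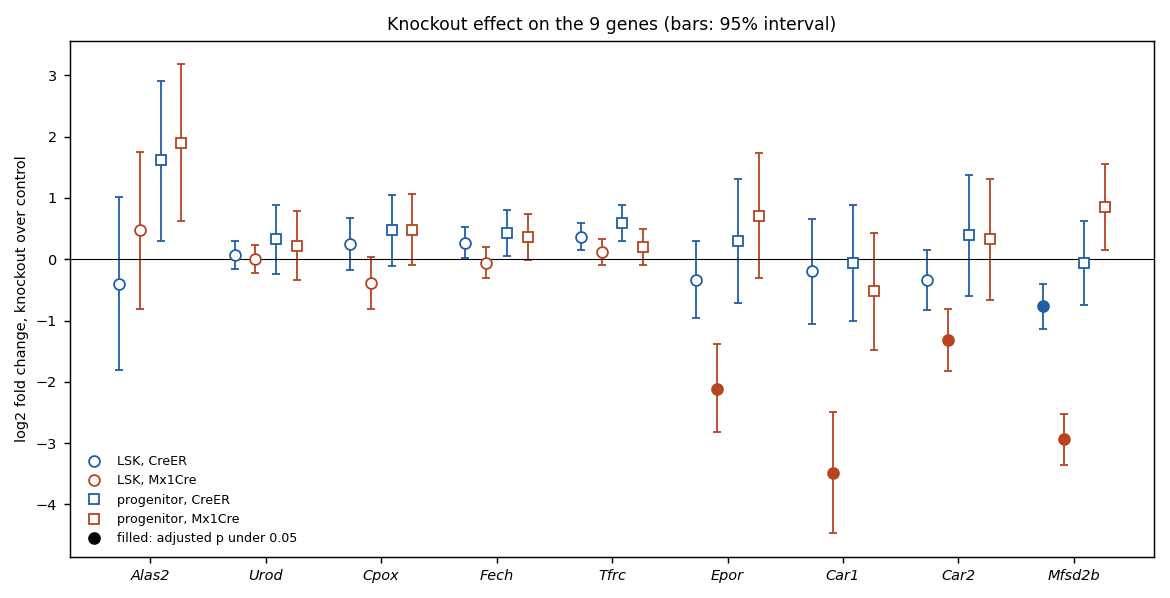
Log2 fold change of knockout over control for the 9 genes in LSK cells (circles) and progenitors (squares), CreER in blue and Mx1Cre in red, with 95% intervals. Filled points have an adjusted p under 0.05. Epor, Car1, Car2 and Mfsd2b are filled for LSK Mx1Cre, Mfsd2b alone for LSK CreER, and no progenitor point is filled.

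The difference between the Cre lines was tested directly. The Mx1Cre change exceeded the CreER change downward for Mfsd2b (-2.17 ± 0.26, adjusted p = 9.25e-05, edgeR), Car1 (-3.28 ± 0.61, adjusted p = 0.00443) and Epor (-1.77 ± 0.45, adjusted p = 0.0334), 3 of 9 against 4.37% of all genes. For Car2 the difference of -0.97 was not called (adjusted p = 0.0977, edgeR). The call of Epor was lost without any of CreER controls 1, 2 and 3, Mx1Cre controls 1 and 2, CreER knockouts 3 and 4, or Mx1Cre knockouts 1, 3 and 4, with a difference of -2.03 to -1.34 over the 16 such fits. It was also lost with limma-voom. Without LSK CreER knockouts 2 and 3 the difference was called for Car1 (-3.19) and Mfsd2b (-2.12) only, against 2.13% of all genes.

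Averaged over both Cre lines, 4 genes were lower and Tfrc higher in knockout LSK cells, against 27.8% of all genes called. Mfsd2b changed by -1.85 ± 0.13, Car1 by -1.84 ± 0.31, Epor by -1.22 ± 0.23 and Car2 by -0.83 ± 0.17. With CreER alone, Car1 changed by -0.197, Epor by -0.337 and Car2 by -0.345, none of them called. The averages of these genes therefore came mostly from Mx1Cre. Tfrc changed by 0.24 ± 0.07 (adjusted p = 0.0174, edgeR), and Urod, Cpox, Fech and Alas2 were not called. The same 5 were called without LSK CreER knockouts 2 and 3, against 21.8% of all genes.

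The 4 Mx1Cre control mice were not alike for these genes, and the 2 with low values were the 2 males. Male minus female LSK controls differed by -2.06 for Car1, -1.65 for Epor, -1.05 for Car2 and -0.93 for Cpox on the log2 scale, a description without a test because these values prompted the comparison by sex. In LSK Mx1Cre knockouts the same differences were 0.43, -0.13, 0.36 and -0.38. With 2 mice per sex and genotype, sex and individual mouse cannot be told apart.

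The knockout difference was then taken within each labelled sex, a split also added after the control values were seen. The low male control values of Epor, Car1, Car2 and Cpox that prompted the split enter these differences. A smaller fall of these genes in males was thus set in part by the choice of split and cannot show an effect of sex. Among females Epor changed by -2.65 ± 0.26, Car1 by -4.40 ± 0.37, Car2 by -1.93 ± 0.22, Mfsd2b by -3.35 ± 0.20 and Cpox by -0.61 ± 0.14, 5 of 9 called against 14.0% of all genes. Among males Epor changed by -1.13 ± 0.27, Car1 by -1.91 ± 0.35 and Mfsd2b by -2.46 ± 0.20, 3 of 9, a share near the 27.3% of all genes. Car2 changed by -0.52 in males and was not called (adjusted p = 0.0934, edgeR). The test of the difference between the sexes called none of the 9 (0.0498% of all genes), with the lowest adjusted p, 0.145, for Car1.

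**Figure D3:**
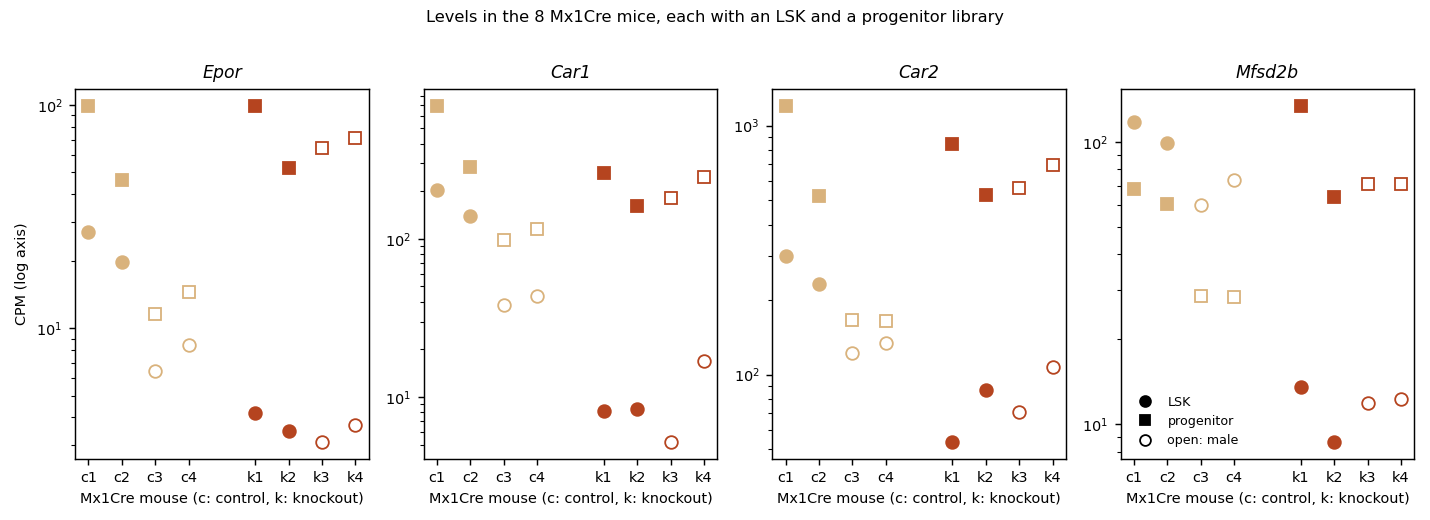
CPM on a log axis of Epor, Car1, Car2 and Mfsd2b in the 8 Mx1Cre mice, each with an LSK library (circle) and a progenitor library (square). Filled points are females and open points males. Control mice 1 and 2 lie above control mice 3 and 4 in both populations, and the LSK knockout libraries lie below all LSK controls.

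In progenitors Alas2 and Tfrc were higher in knockouts averaged over the Cre lines, and none of the 9 was called lower. With CreER alone and with Mx1Cre alone, none of the 9 was called by edgeR, against 0.168% and 6.08% of all genes. At an unadjusted p under 0.05 there were 3 with CreER (Alas2, Fech and Tfrc, all higher) and 2 with Mx1Cre (Alas2 and Mfsd2b, both higher). DESeq2 called 1 gene with each Cre line and limma-voom called 0 with each. With CreER, Cpox, Fech and Tfrc were higher in every knockout library than in any control, 3 of 9 against 4.77% of all genes. With Mx1Cre all 9 overlapped, while 9.30% of all genes did not.

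The average over the Cre lines called 2 of 9 genes, against 2.28% of all genes called higher and 7.79% called in either direction. Alas2 was at 0.150, 0.559, 1.04 and 0.648 CPM in CreER controls and at 0.953, 2.02, 2.12 and 2.32 in CreER knockouts. In Mx1Cre mice it was at 0.894, 1.38, 0.125 and 0.282 CPM in controls and at 4.03, 1.25, 1.78 and 3.60 in knockouts. Knockout levels were mostly above control levels, with an overlap of 1 library in each line, and counts were low, at 1 to 16 reads per control library and 13 to 61 per knockout library. The log2 change was 1.75 ± 0.43 (adjusted p = 0.0183, edgeR).

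Tfrc was at 205, 268, 297 and 277 CPM in progenitor CreER controls and at 367, 353, 439.8 and 431 in knockouts. In Mx1Cre mice it was at 408, 406, 398 and 331 CPM in controls and at 542, 476, 406 and 369 in knockouts. The CreER groups were apart and the Mx1Cre groups overlapped, and the change over both was 0.39 ± 0.10 on the log2 scale (adjusted p = 0.0189, edgeR). Fech had a change of 0.40 (adjusted p = 0.0642), Cpox of 0.47 (adjusted p = 0.168), Epor of 0.50 and Car1 of -0.29, none of them called. The difference between the Cre lines was called for 0 of 9 genes by edgeR, against 0.299% of all genes, and 0 had an unadjusted p under 0.05.

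The number of progenitor differences called over both Cre lines was 7 without Mx1Cre control 1 and 2 or 3 on leaving out any other progenitor library. The third was Fech, called without Mx1Cre control 2 (0.47), CreER knockout 1 (0.44) or Mx1Cre knockout 4 (0.45). With Mx1Cre alone, Alas2 was called without control 2 (2.46, adjusted p = 0.0477, edgeR). Progenitor Mx1Cre control 1, the library with the loss of long genes, was at 99.6 CPM of Epor against 46.1, 11.6 and 14.6 in the other controls of its group. It was at 1202 CPM of Car2 against 522, 166 and 164, at 696 of Car1 against 286, 97.8 and 116, and at 142 of Urod against 72.2, 44.4 and 56.9. For these 4 genes it was the highest control of its group by far. The LSK library of the same mouse, whose length slope was 0.047, was also the highest of its group for Epor (26.9 CPM), Car1 (203), Car2 (299) and Urod (59.4). The part of this library's quality or of its mouse in the result was not tested.

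Without that library, 7 of the 9 genes were higher in knockout progenitors averaged over the Cre lines, against 5.25% of all genes called higher. The log2 changes were 1.85 ± 0.46 for Alas2, 0.94 ± 0.25 for Epor, 0.81 ± 0.22 for Car2, 0.61 ± 0.18 for Cpox, 0.52 ± 0.11 for Urod, 0.45 ± 0.12 for Fech and 0.43 ± 0.10 for Tfrc. Mfsd2b (0.54, adjusted p = 0.124, edgeR) and Car1 (0.16, adjusted p = 0.678) were not called. The left-out library was female by label, and the 2 male controls had the low values. A split by sex, added after the values were seen, used Mx1Cre alone with all libraries. Females changed by 0.04 for Epor, -0.36 for Car2, -0.23 for Urod and -1.25 for Car1. Males changed by 2.39, 1.95, 0.92 and 1.02. The other genes of the 9 had positive changes in both sexes, and none of the 9 was called in either (0.406% and 0.214% of all genes). With Mx1Cre alone and without that library, Epor (1.58), Car2 (1.23), Mfsd2b (1.14) and Urod (0.70) were higher, against 11.1% of all genes called. Without both that control and Mx1Cre knockout 4, the other library that lost long genes, the same 7 genes were called over both Cre lines (5.77% of all genes higher), with Alas2 at 1.76 and Epor at 0.93. With Mx1Cre alone, Epor (1.57), Mfsd2b (1.20), Cpox (0.88) and Urod (0.68) were then called higher, against 3.84% of all genes, and Car2 (1.18) was not (adjusted p = 0.0536, edgeR). With CreER alone, Tfrc was called in that fit (0.59, adjusted p = 0.0379, edgeR). Without Mx1Cre knockout 4 only, Alas2 (1.68), Tfrc and Fech were called over both lines, against 2.75% of all genes higher. Epor reached 46.1 CPM in the 3 remaining controls and was at least 52.6 in the knockouts, and Car2 reached 522 and was at least 527. The left-out control was the highest of its group, at 99.6 CPM of Epor and 1202 of Car2. Leaving it out raised these differences and made these groups separate, so the separation is no support for a rise.

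**Figure D4:**
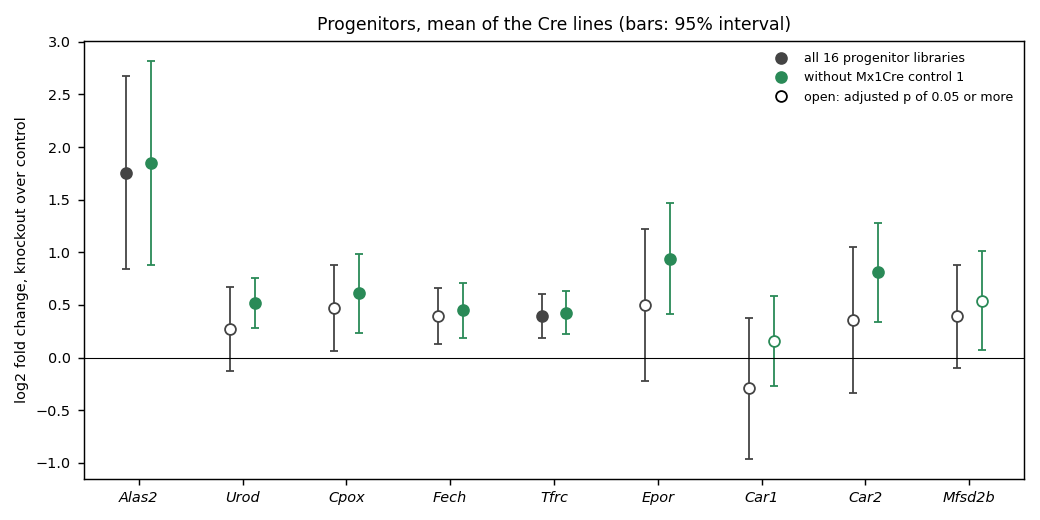
Log2 fold change of knockout over control in progenitors, averaged over the Cre lines, with 95% intervals, from all 16 libraries (grey) and without Mx1Cre control 1 (green). Filled points have an adjusted p under 0.05. Alas2 and Tfrc are filled with all libraries, and 7 genes are filled without that library.

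The knockout difference in LSK cells was then set against that in progenitors, over both Cre lines. It was lower in LSK cells for Mfsd2b (-2.26 ± 0.28, adjusted p = 4.35e-05, edgeR) and Epor (-1.73 ± 0.44, adjusted p = 0.0286), 2 of 9 against 2.52% of all genes. The call of Epor was lost without any of LSK CreER control 4, LSK Mx1Cre controls 1 and 2, LSK Mx1Cre knockout 3, progenitor CreER control 3, progenitor CreER knockout 4 or progenitor Mx1Cre knockout 1, with a difference of -2.16 to -1.52 over the 32 such fits. Car1 (-1.56, adjusted p = 0.0706) and Car2 (-1.20, adjusted p = 0.101) had similar estimates and were not called. With the mouse as a block, paired as labelled, 5 were called against 5.32% of all genes, adding Car1 (-1.64), Car2 (-1.41) and Cpox (-0.56). Without progenitor Mx1Cre control 1, Mfsd2b (-2.39), Epor (-2.16), Car1 (-1.99), Car2 (-1.64) and Urod (-0.48) were called, against 4.36%. The same 5 were called without that control and Mx1Cre knockout 4 together, against 5.25%. Without LSK CreER knockouts 2 and 3, Mfsd2b alone (-2.30) was called, against 0.991%.

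The 2 sets of controls were also compared. Tfrc was higher in Mx1Cre than in CreER controls in both populations, by 0.83 ± 0.10 in LSK cells and 0.56 ± 0.14 in progenitors on the log2 scale, with no overlap between groups in either. In LSK cells its values were 244, 215, 249 and 196 CPM against 117, 121, 151 and 127. Mfsd2b was lower, by -0.50 ± 0.17 in LSK cells, where the groups overlapped, and by -2.11 ± 0.34 in progenitors. The LSK call was lost without any of CreER controls 1, 2 and 4 or Mx1Cre controls 2, 3 and 4, with a difference of -0.69 to -0.35 over the 8 such fits. It was also lost with a term for sex, with only the compared libraries and against a fold of 1.5. By label, CreER control 4 and Mx1Cre controls 3 and 4 were male and the other controls female, so sex was not balanced. In progenitors the Mfsd2b values were 68.4, 60.1, 28.5 and 28.3 CPM against 261, 227, 133 and 186, without overlap. Car2 was lower in LSK Mx1Cre controls (-1.03 ± 0.23). These are 3 of 9 in LSK cells against 21.7% of all genes, and 2 of 9 in progenitors against 25.3%, shares near those of all genes. Without progenitor Mx1Cre control 1, 7 were called in progenitors (27.1% of all genes), with Urod (-0.51), Cpox (-0.75), Epor (-1.74), Car1 (-1.99) and Car2 (-1.32) also lower. Knockout comparisons were made within a Cre line, against its own controls.

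The wider pathways were counted with the same LSK Mx1Cre test, where 15.2% of all genes were called higher and 15.9% lower. Of 8 heme synthesis enzymes, 0 were called by edgeR. The other enzymes were Alas1 (0.38), Alad (-0.26), Uros (0.14) and Ppox (-0.42) on the log2 scale, and 2 of the 8, Alad and Ppox, had an unadjusted p under 0.05. Of 24 genes of heme and iron transport and handling, 6 were higher and 4 lower. Among them were the iron transporter Slc11a2 (-0.58), the iron exporter Slc40a1 (-1.35), the ferritin heavy chain Fth1 (0.48) and the iron-sulfur scaffold Iscu (0.52).

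Among these pathway lists, erythroid transcription factors had the largest number of calls in one direction, 11 of 15 lower and 1 higher. Megakaryocyte and mast cell markers, counted below, had similar shares lower. Gfi1b changed by -2.39 ± 0.26, Gata1 by -2.32 ± 0.23, Sox6 by -1.82 ± 0.23 and Bcl11a by -1.01 ± 0.12. The gene that was higher was Lyl1 (0.42), named after its value was seen. The median of this list was -0.61, against -0.0053 over all genes. Of 19 tested genes of the red cell membrane and cytoskeleton, 8 were lower, among them Kel (-2.88), the water channel Aqp1 (-2.22) and Tspan33 (-1.85), and Cd24a was higher (1.07).

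Of 15 genes of erythropoietin receptor signalling, 7 were lower and 3 higher. Besides Epor, the adaptor Gab1 (-1.59) and the signal transducers Stat5a (-0.60) and Stat5b (-0.48) were lower. Of 9 tested carbonic anhydrases, 4 were lower: Car12 (-4.56), Car13 (-1.87), Car1 and Car2. Of 10 tested genes of sphingosine-1-phosphate handling, Mfsd2b and the receptor S1pr4 (-0.72) were lower.

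The globins moved in the other direction in these LSK cells. Of 3 tested, Hbb-b1 (2.41 ± 0.36) and Hbb-bs (3.37 ± 0.67) were higher, and Hba-a1 (1.40) was not called. The summed level of the list was 1.37 to 5.08 CPM in controls and 7.62 to 15.6 in knockouts. These are near-identical gene copies whose reads the counting may have split, so the single-gene values are uncertain.

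In progenitors over both Cre lines, few genes of these lists were called with all 16 libraries, against 2.28% of all genes called higher and 5.51% lower. Alas2 was the only 1 of 8 heme enzymes, and Tfrc, the iron-regulated aconitase Aco1 (0.35) and the heme exporter Flvcr1 (0.32) were 3 of 24 genes of iron handling, all higher. Hbb-b1 was higher (2.18 ± 0.56), 1 of 4 globins, and Cd24a (0.80) was higher, 1 of 21 membrane genes. Sox6 was higher (0.81) and Nfe2 lower (-0.41) among 15 transcription factors. Car12 (-3.69) and Car13 (-1.02) were lower, and Gata1 (0.23 ± 0.34) and Gfi1b (-0.0071 ± 0.28) were not called. Spns2 of the sphingosine-1-phosphate list was higher, and none of 15 genes of erythropoietin receptor signalling was called by edgeR.

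Without progenitor Mx1Cre control 1 the counts were larger, against 5.25% of all genes called higher. They were 6 of 8 heme enzymes higher (Uros, Urod, Alad, Alas2, Fech and Cpox), 11 of 24 genes of iron handling, 4 of 4 globins, 9 of 21 membrane genes and 4 of 15 transcription factors. The left-out library had a globin sum of 55.3 CPM, against 2.07 for the lowest control of its group and 24.5 to 52.4 for the knockouts.

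**Figure D5:**
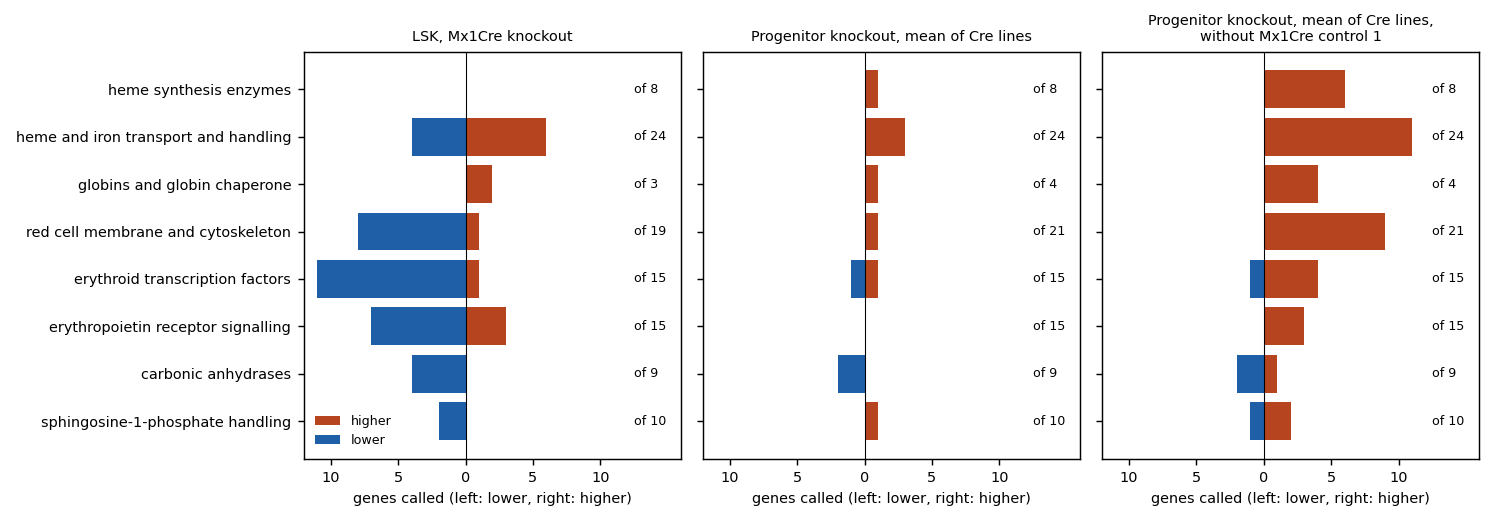
Number of genes called higher (right, red) or lower (left, blue) in each of 8 gene lists, for LSK Mx1Cre knockout, progenitor knockout averaged over the Cre lines, and the same without Mx1Cre control 1. The number tested stands at the right of each bar. In LSK cells 11 of 15 erythroid transcription factors are lower and 0 of 8 heme enzymes are called, and without that library 6 of 8 heme enzymes are higher in progenitors.

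Some lists of markers of other cells moved with the LSK Mx1Cre difference, where 15.2% of all genes were called higher and 15.9% lower. The summed level of 14 megakaryocyte markers was 337 to 465 CPM in controls and 192 to 241 in knockouts, with 9 of 12 tested genes lower and 1 higher. In these controls Gp6 was at 0. That of 11 mast cell and basophil markers was 999 to 1243 CPM in controls and 479 to 563 in knockouts, with 8 of 10 tested lower, 1 higher and none at 0. Of 10 LSK markers 7 were lower and 1 higher, and their sum was 1341 to 1630.2 CPM in controls and 958 to 1325 in knockouts. Lymphoid markers summed to 110.4 to 150.3 CPM in controls and 32.2 to 85.8 in knockouts, with 3 of 9 tested (Dntt, Il7r and Cd4) lower and none at 0. Neutrophil markers summed to 18921 to 21282 CPM in controls and 20192 to 28846 in knockouts, with 1 of 12 higher. Monocyte markers summed to 1933 to 2527 CPM in controls and 1758 to 2100.5 in knockouts, which overlapped. Myeloid progenitor markers summed to 12636 to 15428 CPM and 14534 to 18159, which also overlapped. Of that list Kit (-0.645), Gata1 (-2.32) and Klf1 (-2.19) were lower and Gfi1 (0.547) higher. The part of a shifted cell mixture in the falls of Epor, Car1, Car2 and Mfsd2b was not tested. In progenitors over both Cre lines, 6 of 10 tested monocyte markers were lower and 1 higher, against 5.51% and 2.28% of all genes. Their sum was 3616 to 4663 CPM in Mx1Cre controls and 1552 to 2170 in knockouts, without overlap, and 873 to 1963 in CreER controls and 639 to 1194 in CreER knockouts, which overlapped. Megakaryocyte markers in progenitors summed to 78.5 to 152 CPM in Mx1Cre controls and 147 to 176 in knockouts. With CreER they summed to 318 to 590 CPM and 207 to 377. Mast cell and basophil markers summed to 521 to 664 CPM in Mx1Cre controls and 426 to 537 in knockouts. With CreER they summed to 616 to 1096 CPM and 692 to 969. For both lists, controls and knockouts overlapped in each Cre line. The part of such shifts in the rises of Alas2 and Tfrc was not tested.

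Finally, the genes whose log2 CPM followed each of the 9 most closely were listed over the 16 libraries of a population, as a description without a test. These libraries fall into 4 groups, so they are not independent points. In LSK cells Klf1, an erythroid transcription factor, was among the closest for Epor (Pearson r = 0.98) and the closest for Car1 (0.987, followed by Aqp1 at 0.98). Car2 was closest to Trpc6 (0.982) and the platelet glycoprotein gene Gp5 (0.972), and Mfsd2b to Samd14 (0.987). Cpox was closest to Myh10 (0.912) and then to the red cell ankyrin gene Ank1 (0.904) and the spectrin gene Sptb (0.894), Urod to Slc25a33 (0.893), Fech to Cd28 (0.844), Tfrc to Hsd17b1 (0.945) and the rarely counted Alas2 to Ap5z1 (0.779).

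In progenitors Epor and Car2 were among each other's closest genes (0.982), and Aldh1a7 was near both (0.976 and 0.987). Cpox was closest to Ank1 (0.976) and Ermap (0.972). Fech was closest to Ermap (0.941) and the porphyrin transporter Abcb6 (0.938), and Urod to the biliverdin reductase Blvrb (0.958). Mfsd2b was closest to the urea transporter Slc14a1 (0.988), Car1 to Epdr1 (0.968), Tfrc to Sgip1 (0.906) and Alas2 to Slc39a8 (0.877).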

How the data were processed

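Per the labels' protocols, TruSeq libraries were prepared from 50 ng of RNA of FACS-sorted LSK and progenitor cells and read as 80 bp pairs. The authors deposited raw, whole-number read counts for each gene, made with featureCounts on mm10, per the submitters' processing notes. Aligner, annotation and strandedness are not given in the sources used, so overlapping or antisense genes may share counts. Symbols, exon positions and upstream sequences came from RefSeq tables of GRCm38.p6, and exon lengths from the count table.

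Counts were tested with edgeR 4.0.16 in R 4.3.3: TMM, filterByExpr against low counts (minimum 10 per library, 15 overall), quasi-likelihood F-tests and Benjamini-Hochberg adjustment over all genes tested, at 0.05. All 9 genes passed the filter. The 16 libraries of a population were fitted together, and all 32 where populations were compared, in 13 comparisons. Intervals are at 95%. Reads are not independent molecules, so low counts carry counting error at least. The test was checked on simulated data for LSK knockout against control over both Cre lines, with the same change in both. Of 13919 genes tested, 86% of those changed 2-fold and 99% of those changed 4-fold were recovered. There were 10 false calls, 5.24% of those called. Comparisons within a Cre line and differences between effects were not simulated. The genes and lists were chosen with earlier results of these data known. Named from each list were up to 4 called genes with the lowest adjusted p, the heme enzymes counted and the globins. A gene taken out of each of the heme enzyme and membrane lists is not reported here. Likeness took the 3 genes of highest Pearson correlation (log2 CPM, prior count 2) among those averaging 1 log2 CPM or more, of which the text gives 1 to 3.

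Alternatives were DESeq2 1.42.0 (size factors and test), limma-voom (limma 3.58.1), other filters, a block for the mouse or the replicate number, a term for sex, removal of the length trend, a test against a fold of 1.5, only the compared libraries and leaving out libraries. The comparisons by sex, the list counts without single libraries and the fits without progenitor Mx1Cre knockout 4 and control 1 together were added after the data were seen. The labels give the same mouse for an LSK and a progenitor library, and deviations from the group mean correlated at -0.174 to 0.569 within these 16 pairs, over 0.1 in 14. The pairs not over 0.1 were CreER knockouts 2 (-0.174) and 3 (-0.0662). Their LSK libraries had sex-linked genes against the label, while their progenitor libraries matched it. Whether these LSK libraries were exchanged was not tested, and the mouse block used the pairs as labelled. Control and knockout libraries shared only a number.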

Additional observations from a re-analysis of the deposited data

Results flagged for a closer look

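In 7 of 72 sets of 4 libraries, 1 library stood apart from the other 3 by Dixon's test at the 95% level, which chance gives in about 1 of 20 sets. Low ones were Urod in LSK CreER control 4 (57.9 CPM), Cpox (61.0 CPM) and Car2 (330 CPM) in LSK CreER control 3, Tfrc in progenitor Mx1Cre control 4 (331 CPM) and Car1 in progenitor CreER knockout 3 (451 CPM). High ones were Cpox in LSK CreER knockout 2 (103 CPM) and Mfsd2b in progenitor Mx1Cre knockout 1 (135 CPM). LSK CreER knockout 2 is one of the 2 libraries whose sex-linked genes go against the label.

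Effects that differed between groups by a direct test were the LSK knockout difference of Mx1Cre minus CreER for Epor (-1.77), Car1 (-3.28) and Mfsd2b (-2.17), and the knockout difference of LSK minus progenitor cells for Epor (-1.73) and Mfsd2b (-2.26), all on the log2 scale.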

How the results depend on the processing

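Of 117 gene results, 63 were called under some setting. Their 1442 alternative values comprised 1289 that kept direction and side of the threshold, 79 weaker, 69 stronger and 5 reversed. The reversed ones were Urod (-0.23) and Car2 (-0.36) in progenitor Mx1Cre knockouts among females only, and the difference of Urod between progenitor controls, which ran from -0.51 to 0.16 on leaving out each library.

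A test against a fold of 1.5 called fewer of the 9 genes: in LSK cells 0 with CreER, 3 over both Cre lines and 0 between controls, in progenitors 0 over both lines and 1 between controls, in LSK against progenitor cells 3 (CreER) and 0 (Mx1Cre), and 1 for the knockout difference between populations. DESeq2 called 2 in LSK CreER knockouts and 1 in each progenitor knockout, and limma-voom 2 in LSK CreER knockouts. Sex as a covariate and the replicate number as a block each called 1 in progenitor Mx1Cre knockouts. The mouse as a block called 8 in CreER LSK against progenitor controls and 5 for the knockout difference between populations. With only the compared libraries, 1 was called in progenitor CreER knockouts, and 8 (CreER) and 1 (Mx1Cre) in LSK against progenitor controls. Without progenitor Mx1Cre control 1 and knockout 4, a pair chosen after the data were seen, 4 were called in progenitor Mx1Cre knockouts, 7 over both lines and 5 for the difference between populations. Without LSK CreER knockouts 2 and 3, 0 were called in LSK CreER knockouts and 1 for the difference between populations. The block by replicate number also ended the call of Epor in the LSK difference between Cre lines. Same-numbered control and knockout libraries correlated at -0.421 to 0.549, over 0.1 in 10 of 16 pairs.

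Leaving out each compared library in turn gave 0 to 2 called in LSK CreER knockouts, 4 to 5 with Mx1Cre, 5 over both lines, 2 to 4 for the difference between lines and 2 to 4 between controls. In progenitors it gave 0 with CreER, 0 to 4 with Mx1Cre, 2 to 7 over both lines, 0 for the difference between lines and 2 to 7 between controls. Across populations it gave 5 (CreER, and 6 without progenitor Mx1Cre control 1, which is not compared but shares the fit), 4 to 8 (Mx1Cre) and 1 to 5 for the knockout difference. The cause of these changes was not tested. Depth limits Alas2, which no library held at more than 61 reads.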
